A study of Mus musculus with 3 samples.

Results

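These data were examined for 10 genes chosen by name: Il6, Il12a, Il12b, Il23a, Il27, Il10, Lif, Csf2, Csf3 and Edn1. They are cytokine and mediator genes that macrophages are known to switch on late after contact with bacterial products, or only after their chromatin has been remodelled. All 10 were found among the 55536 annotated genes of the deposited tables. The study measured RNA bound to chromatin in macrophages grown from bone marrow of C57BL/6J mice and exposed to lipid A at 100 ng/ml over 15 min. Lipid A is the part of lipopolysaccharide that the receptor TLR4 recognises. There is 1 group of 3 biological replicates, which share a donor label and have separate sample labels. Library preparation used 1 µg of RNA for replicate 1 but 250 ng for replicate 2, and replicate 3 had 500 ng. No unstimulated library was analysed here, so every value is a level at this time and not a response. The age and sex of the mice are not given, and nothing says that the replicates came from separate animals, so their spread may be technical.

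Macrophages sense lipopolysaccharide through TLR4, which activates NF-kB, MAP kinases and interferon regulatory factors. The first genes to respond have open promoters and need no new protein. Later genes, such as Il6 and Il12b, wait for nucleosome remodelling or for transcription factors that the first wave makes. RNA on chromatin consists largely of transcripts still being made, so it reports more on recent transcription than RNA of the whole cell does.

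Depth was 10974934, 21376404 and 14376665 expected counts in replicates 1, 2 and 3. Expected counts are estimated counts that need not be whole, and TPM divides them by transcript length and scales each library to a sum of 1000000. A value of 3 counts was taken as the floor, below which a gene cannot be told from one with no RNA at this depth. All 8 macrophage markers examined, among them Csf1r, Adgre1 and Mertk, were above 1 TPM on average, with a summed level of 750.6, 435.5 and 669.5 TPM in replicates 1, 2 and 3. Values are from the gene table unless a second deposited quantification is named. In the gene table none of the T cell (6 genes), B cell (5), neutrophil (6), mast cell (6) and fibroblast (6) markers reached a mean of 1 TPM. In the second quantification 3 T cell, 2 neutrophil, 1 mast cell and 1 fibroblast marker did, and no B cell marker. The highest was Cd3d, a chain of the T cell receptor complex, at 16.1 ± 4.35 TPM (SD, n = 3), which had 0, 1 and 0 counts in the gene table. Except for B cells, the absence of any marker at 1 TPM in each of these cell types therefore holds in the gene table only. Of the dendritic cell markers 2 of 6 reached 1 TPM in the gene table, Batf3 and Zbtb46, and of the endothelial markers 2 of 6, Vwf and Kdr. A mean of 1 TPM was reached by 46.5% of protein-coding genes in the gene table and by 58.7% in the second quantification. In bulk RNA, fewer cells of a type and less RNA per cell cannot be told apart.

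In the gene table most of these genes had RNA at or near the floor, and Il10 did not. Of the 10 genes 4 had at least 3 expected counts in every library, namely Il10, Il27, Il23a and Il12b, against 55.7% of protein-coding genes, so a description of all 10 as at the floor does not hold. Il6, Lif and Csf3 reached 3 counts in some libraries, and Csf2, Edn1 and Il12a in none. Only Il10 had a mean of at least 1 TPM, a level that 46.5% of protein-coding genes reached. The median over the 10 genes of the mean level was 0.228 TPM, and over all 22028 protein-coding genes 0.567 TPM. The values in TPM and the numbers of genes past a threshold depend on the quantification and the scaling. In the second quantification 8 of the 10 genes had at least 3 counts in every library and the median was 0.742 TPM. The matching share and median of protein-coding genes were not computed there. Counts were higher there in general, with a median ratio of 1.75 over protein-coding genes with at least 10 counts. With TPM rescaled to protein-coding genes 6 of the 10 reached 1 TPM. Rescaling multiplies all genes of a library by the same factor, so their order within a library did not change. The matching share of protein-coding genes after rescaling was not computed. In order of mean level the genes were Il10, Il27, Il23a, Il6, Il12b, Lif, Csf3, Csf2, Edn1 and Il12a. Il10 stood apart from Il27, its next in order, since its lowest library was above the highest library of Il27. From Il27 downwards the ranges of every pair of neighbours over the 3 libraries overlapped or, for Edn1 and Il12a, met at 0, so the order of neighbours was not resolved. Some genes farther apart in the order had ranges that did not overlap. The highest value of Csf3, Csf2, Edn1 and Il12a was 0.18 TPM. The ranges of Il27, 0.2 to 1.26 TPM, and Il23a, 0.25 to 0.73 TPM, lay above it. These ranges leave out counting error. In replicate 2 the exact 95% Poisson intervals overlapped, at 0.0658 to 0.473 TPM for Il27 and 0.0167 to 0.236 TPM for Csf3, so this order is not firm either. The range of Il12b lay above those of Edn1 and Il12a in the gene table. In the second quantification Edn1 was above Il12b, at means of 1.58 and 0.45 TPM.

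**Figure D1:**
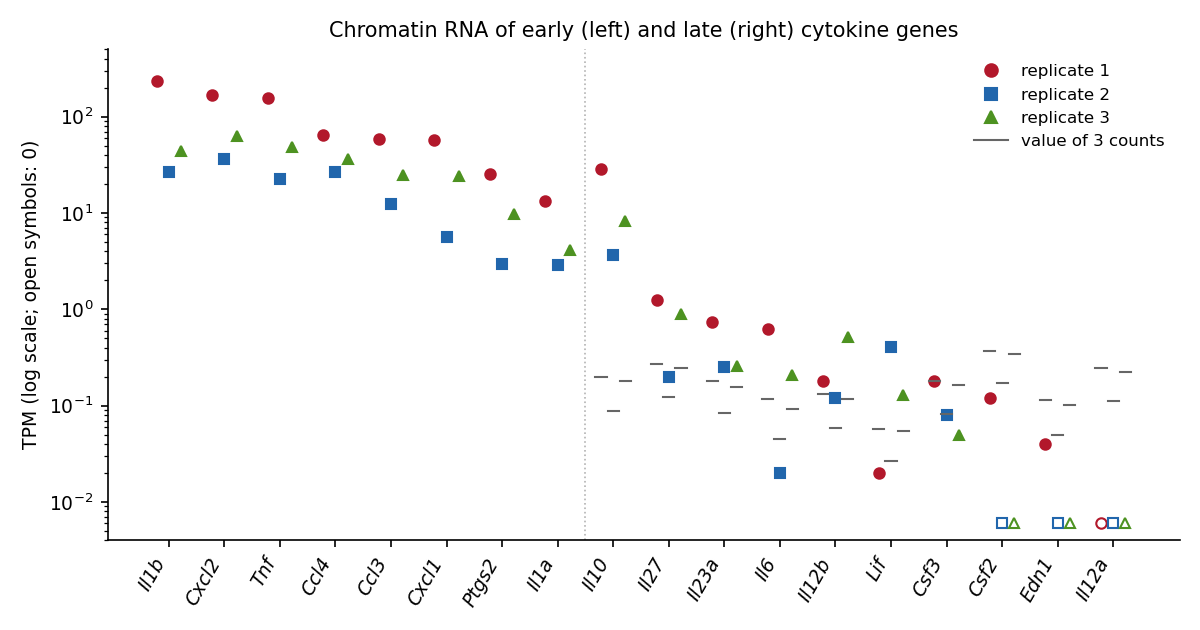
TPM of each gene in each library on a log axis, with the 8 early cytokine genes to the left of the dotted line and the 10 late genes to the right. Short grey bars give the value of 3 counts for each late gene and library, and open symbols at the bottom stand for 0. Il10 lies between 3.69 and 28.3 TPM, within the span of the early genes, while the other late genes lie between 0 and 1.26 TPM.

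Il10 encodes the anti-inflammatory cytokine that limits the macrophage response, and it lies on chromosome 1 (mm10, chr1:131019845-131024974, plus strand). It had 426, 125 and 137 expected counts in replicates 1, 2 and 3. The exact 95% Poisson intervals were 387 to 468, 104 to 149 and 115 to 162 counts. At the depth of each library these equal 25.7 to 31.1, 3.08 to 4.4 and 6.89 to 9.7 TPM, so all 3 libraries lay apart. Such intervals and the floor cover counting error only, since PCR copies of a molecule were not marked. The counts of Il10 corresponded to 28.3, 3.69 and 8.21 TPM, a mean of 13.4 ± 13.1 TPM (SD, n = 3), above 82.6% of protein-coding genes. Replicate 1 was the highest and carried much of the mean, which was 5.95 TPM without it. The annotation holds 1 isoform of the gene and no other gene overlapping it. Its neighbours were Il19, a cytokine gene of the same family 79730 bp away, with 0, 1 and 0 counts, and the kinase gene Mapkapk2, 28726 bp away on the other side, at 14.9 ± 6.91 TPM (SD, n = 3). Il24, a further member of that family, had no count in any library. These relatives of Il10 were thus at the floor or at 0.

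The protein-coding genes with levels most like Il10, by distance in log2(TPM + 0.1) over the 3 libraries, were Srgn, Nfkbie and Sowahc. Srgn, the proteoglycan serglycin, was at 22.3, 3.7 and 8.05 TPM, at a distance of 0.345. Nfkbie, an inhibitor of NF-kB, was at 25.2, 4.27 and 10 TPM, at a distance of 0.387. Sowahc was at 22.6, 4.19 and 9.35 TPM, at a distance of 0.415. As their choice implies, all were highest in replicate 1 and lowest in replicate 2.

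The interleukin 12 family is built of paired chains: Il12b (p40) pairs with Il12a (p35) to form interleukin 12 and with Il23a (p19) to form interleukin 23, and Il27 (p28) pairs with Ebi3. Il12b (chr11:44400063-44414033, plus strand) had 4, 6 and 13 counts, which is 0.18, 0.12 and 0.51 TPM and a mean of 0.27 ± 0.21 TPM (SD, n = 3), or 0.15 TPM without replicate 3. It was highest in replicate 3, where the counting interval of 0.273 to 0.878 TPM lay above that of replicate 2, 0.0429 to 0.255 TPM. Il12a (chr3:68690644-68698547, plus strand) had no count on any of its 6 isoforms in either quantification. The floor of 3 counts equals 0.247, 0.111 and 0.224 TPM for Il12a in replicates 1, 2 and 3. The exact two-sided 95% Poisson interval of a count of 0, as used for the other genes, reaches 3.69 counts, or 0.303, 0.136 and 0.276 TPM. RNA of the annotated p35 isoforms was therefore not detectable at this depth, while RNA of p40 was present at a few counts. Intron reads outside annotated isoforms were not counted here.

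Il23a (chr10:128296139-128298752, minus strand) had 12, 9 and 5 counts, or 0.73, 0.25 and 0.26 TPM, with a mean of 0.413 ± 0.274 TPM (SD, n = 3), or 0.255 TPM without replicate 1. Il27 (chr7:126589010-126594941, minus strand) had 14, 5 and 11 counts, or 1.26, 0.2 and 0.9 TPM, with a mean of 0.787 ± 0.539 TPM (SD, n = 3). Without replicate 2 the mean of Il27 was 1.08 TPM, and 2 genes in place of 1 then had a mean of at least 1 TPM. The partner chain Ebi3 had 52, 31 and 31 counts and was at 4.03, 1.07 and 2.18 TPM, above Il27 in each library. The ends of Il27 and of Apobr, a lipoprotein receptor gene on the opposite strand at 22 ± 7.54 TPM (SD, n = 3), overlapped by 103 bp.

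The interleukin 6 family signals through the shared receptor chain Il6st (gp130). Il6 itself (chr5:30013114-30019981, plus strand) had 16, 1 and 7 counts, or 0.62, 0.02 and 0.21 TPM, a mean of 0.283 ± 0.307 TPM (SD, n = 3). Replicate 1 was highest and replicate 2 was under the floor, and without replicate 1 the mean was 0.115 TPM. Of the 24 counts of Il6 in all, 22.4 were assigned to the isoform Il6-203. This isoform has 2343 bases, of which 1226 lie in introns of Il6-201, the first isoform by name. Il6-201 took 1.64 counts, all in replicate 1. Most of the few Il6 reads were thus placed on a form that keeps intron sequence of Il6-201, as an estimate from annotated models and not a count of introns.

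The sequences upstream of Il6 and Il12b are shown because these 2 genes are standard examples of late activation, beside that of the early gene Tnf. Each runs 5′ to 3′ and ends at the base before the RefSeq start (GRCm38.p6, the assembly also called mm10), and GENCODE gives the same start. Capitals mark matches on either strand to the letters of 4 motifs. These were NF-kB (GGG and CC with any 5 bases between them), AP-1 (TGANTCA), C/EBP (TTGNNCAA) and the TATA box (TATAAA).
Il6, chr5:30012864-30013113, plus strand: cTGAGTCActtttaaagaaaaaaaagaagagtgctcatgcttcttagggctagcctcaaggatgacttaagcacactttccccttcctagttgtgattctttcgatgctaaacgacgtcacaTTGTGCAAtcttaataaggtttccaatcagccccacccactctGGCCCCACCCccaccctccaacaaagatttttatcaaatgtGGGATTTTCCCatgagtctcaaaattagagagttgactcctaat
Il12b, chr11:44399813-44400062, plus strand: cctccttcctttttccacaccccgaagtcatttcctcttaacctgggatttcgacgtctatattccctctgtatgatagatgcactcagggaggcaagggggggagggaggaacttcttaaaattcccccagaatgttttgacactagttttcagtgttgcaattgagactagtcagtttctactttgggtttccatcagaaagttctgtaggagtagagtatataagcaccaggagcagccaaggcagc
Tnf, chr17:35202008-35202257, minus strand: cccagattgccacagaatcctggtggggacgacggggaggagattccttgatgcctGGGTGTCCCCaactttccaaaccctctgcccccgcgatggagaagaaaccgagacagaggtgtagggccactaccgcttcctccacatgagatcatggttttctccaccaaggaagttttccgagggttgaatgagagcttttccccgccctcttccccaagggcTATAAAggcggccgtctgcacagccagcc
Il6 held 3 NF-kB matches, of which 1 on each strand overlapped at 44 to 34 bases before the start, and 1 match each to AP-1 and C/EBP. Il12b held none of the 4, and Tnf held 1 NF-kB match and a TATA box 29 bases before its start. Among 20150 promoters of protein-coding genes cut to the same 250 bases, 52.7% held the NF-kB letters, 6.13% the AP-1, 5.46% the C/EBP and 11.2% the TATA letters. A match is a description of letters, and a missing match says nothing about binding.

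CpG-rich promoters are known to need less remodelling than CpG-poor ones. The observed over expected CpG ratio was 0.277 for Il6, 0.227 for Il12b, 0.238 for Lif, 0.106 for Csf2 and 0.568 for Edn1. Il12a has 2 annotated starts, with 0.126 at the first and 0.744 at the second. The median of the 20150 promoters was 0.551. Of the early genes Ptgs2 was at 0.564, Tnf at 0.485, Cxcl1 at 0.462 and Cxcl2 at 0.4. Il1a was at 0.267, Il1b at 0.174 and Ccl3 at 0.149, so low CpG content occurred in both sets. Of the late genes 6 had an entry in the promoter table, and of the early genes 7. The start used for Csf2 lies 232 bp from the GENCODE start.

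Lif, the leukaemia inhibitory factor (chr11:4257557-4272514, plus strand), had 1, 46 and 7 counts, or 0.02, 0.41 and 0.13 TPM, with a mean of 0.187 ± 0.201 TPM (SD, n = 3). It was highest in replicate 2 and under the floor in replicate 1, the reverse of Il10 and Il6, and without replicate 2 its mean was 0.075 TPM. The fibroblast markers Col1a1, Col1a2, Col3a1, Pdgfra, Dcn and Lum had 0, 270 and 53 counts in sum in replicates 1, 2 and 3, at a summed level of 0, 2 and 1.4 TPM. All 6 were at 0 in replicate 1 and all 6 had a count in replicate 2. The gene most like Lif over the 3 libraries was Col15a1, a collagen gene, with 1, 25 and 6 counts at a distance of 0.251, followed by Klc3 and Arhgef25. In the second quantification all of these markers except Col3a1 had counts in replicate 1, and Col1a1 had 146, 287 and 217 estimated counts. The part of fibroblast RNA in the Lif counts was not tested. Osm, the oncostatin M gene of the same family 16531 bp from Lif, was far higher, at 28.3, 17.4 and 36.5 TPM.

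The colony-stimulating factor genes Csf2 and Csf3 lie on chromosome 11 and drive the growth of myeloid cells. Csf2 (chr11:54247271-54249667, minus strand) had 1, 0 and 0 counts, below the floor in all 3 libraries. Gm12223, annotated opposite to Csf2 over 2068 bp, had no count in any library, and neither had Il3, the neighbour of Csf2 at 15636 bp. Csf3 (chr11:98701263-98703629, plus strand) had 3, 3 and 1 counts, or 0.18, 0.08 and 0.05 TPM, with a mean of 0.103 ± 0.0681 TPM (SD, n = 3), or 0.065 TPM without replicate 1. Its neighbours Psmd3, a proteasome gene, and Med24, a Mediator gene 962 bp away on the opposite strand, were at 10.3 ± 1.86 and 10.9 ± 1.97 TPM (SD, n = 3 each). Csf1, the growth factor gene that macrophages themselves express, was at 22.9, 8.47 and 18.2 TPM.

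Edn1, which encodes the vasoconstrictor endothelin 1 (chr13:42301476-42307990, plus strand), had 1, 0 and 0 counts in the gene table, below the floor in every library. Edn2 and Edn3 had no count. The 6 endothelial markers summed to 40.6, 44.3 and 52.4 TPM in replicates 1, 2 and 3. Vwf made up most of this at 42.5 ± 6 TPM (SD, n = 3), Kdr was at 2.91 ± 1.35 and Pecam1 at 0.303 ± 0.162 TPM (SD, n = 3 each), and Cdh5, Tek and Cldn5 had means below 0.1 TPM. The second quantification put Pecam1 at 5.75 ± 1.08 TPM (SD, n = 3). The part of endothelial RNA in the Edn1 values was not tested.

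The second quantification gave higher values for most of the genes, and for Edn1 the difference was extreme. It gave Edn1 74.1, 83.7 and 54.8 estimated counts, 213 times the sum of the gene table. Among 12811 protein-coding genes with at least 10 counts in the gene table the median ratio of the 2 quantifications was 1.75, and 0.0624% had a ratio as high as that of Edn1. Edn1 itself is outside that set, since its ratio rests on 1 count in the gene table. Genes with so few counts can differ as much. The T cell marker Cd3d had 0, 1 and 0 counts in the gene table and 373.3, 699.6 and 618 estimated counts. Gm47118, annotated opposite to Edn1 over 2694 bp, had 1, 2 and 0 estimated counts there. The RNA level of Edn1 therefore depends on the quantification and could not be settled.

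Il23a differed 14.1 times between the quantifications, and the difference lay in 1 isoform. The retained-intron form Il23a-202 took 66.8, 165.7 and 108.5 estimated counts, against 2.4, 0 and 2 expected counts in the gene table's companion transcript table. The protein-coding form Il23a-201 took 9.6, 9.6 and 7.2 against 9.6, 9 and 3. Stat2, an interferon pathway gene on the opposite strand whose annotation ends 3290 bp from Il23a, had 3764, 8513 and 6160 estimated counts. Both followed the order of library depth. The part of Stat2 RNA in the Il23a value was not tested. For the other genes with a count the ratio was 9.56 for Csf2, which rests on 1 count in the gene table, 5.07 for Il27, 4.91 for Lif, 3.86 for Csf3, 2.82 for Il10, 2.23 for Il12b and 1.54 for Il6. In the second quantification 5 of the 10 genes had a mean of at least 1 TPM, against 58.7% of protein-coding genes, namely Il10 at 28.5 ± 23 TPM, Il23a at 3.2 ± 0.432, Il27 at 2.77 ± 1.62, Edn1 at 1.58 ± 0.744 and Lif at 1.03 ± 0.142 (SD, n = 3 each). Il6 was at 0.426 ± 0.482 and Il12b at 0.45 ± 0.229 TPM (SD, n = 3 each), so both stayed below 1 TPM in either quantification. Lif had 50.7, 121.4 and 93 estimated counts there, and its TPM differed little between libraries.

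**Figure D2:**
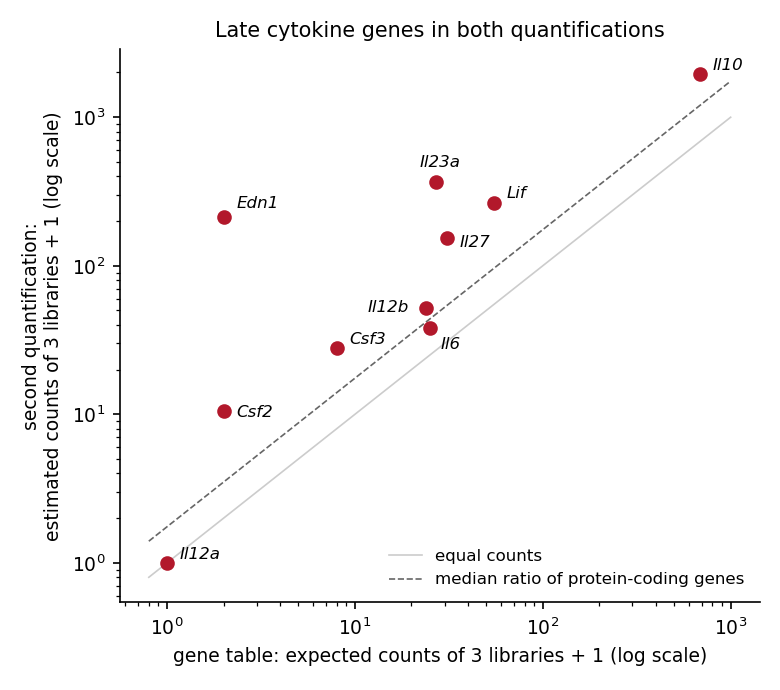
Counts of the 10 late genes summed over 3 libraries, in the gene table (horizontal) and in the second quantification (vertical), each plus 1 on log axes. The dashed line is the median ratio of protein-coding genes, 1.75, and the grey line marks equal counts. Edn1 and Il23a lie far above the dashed line, with ratios of 213 and 14.1, while Il6 lies near it.

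Early cytokine genes served as the comparison within the same libraries. The list of 8 (Tnf, Il1a, Il1b, Cxcl1, Cxcl2, Ccl3, Ccl4 and Ptgs2) was at or above the floor in all libraries, and the median of its mean levels was 36.9 TPM. The median of the early genes exceeded that of the 10 late genes by 5.71, 4.01 and 4.72 on the log2(TPM + 1) scale in replicates 1, 2 and 3, a mean of 4.81 ± 0.855 (SD, n = 3). With 3 libraries an exact two-sided sign-flip test cannot go below 0.25, so no test was made. The difference depends on the pseudocount, and was 6.99 with a pseudocount of 0.1. Il10 overlapped the early set. In every library it lay above the lowest of them, Il1a, which was at 13.4, 2.87 and 4.17 TPM. The other 9 late genes lay below all 8 early genes in every library.

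Several of these genes differed between libraries beyond counting error, mostly with replicate 1 highest. Of the 7 late genes with at least 3 counts in a library, 3 were at least 4-fold higher in replicate 1 than in replicate 2 in TPM + 0.1, against 2.1% of 13668 protein-coding genes with as many counts. These were Il10 at 7.5-fold, Il6 at 6-fold and Il27 at 4.53-fold. Of the 8 early genes 7 passed the same fold, from 4.54-fold for Il1a to 9.98-fold for Cxcl1, and Ccl4 was at 2.43-fold. Il23a was at 2.37-fold, Csf3 at 1.56-fold and Il12b at 1.27-fold, while Lif was at 0.235-fold. In the second quantification Il10 and Il6 also passed 4-fold over replicate 2, while Il27 was at 1.36 on the log2 scale. As a share of protein-coding counts, the ratio of replicate 1 to replicate 2 was 5.73 for Il10, with an exact 95% interval from counting of 4.68 to 7.05, and it was 5.13 for Tnf, with an interval of 4.77 to 5.51. For Il6 it was 26.9, with an interval of 4.18 to 1128 that rests on 1 count in replicate 2. The median gene was 0.51 higher in replicate 1 on the log2 scale, and relative to that median 2 late genes, Il10 and Il6, and 4 early genes were at least 4-fold higher, against 0.702% of protein-coding genes. The amount of starting RNA was also largest in replicate 1 and smallest in replicate 2, so the amount and the library cannot be told apart.

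**Figure D3:**
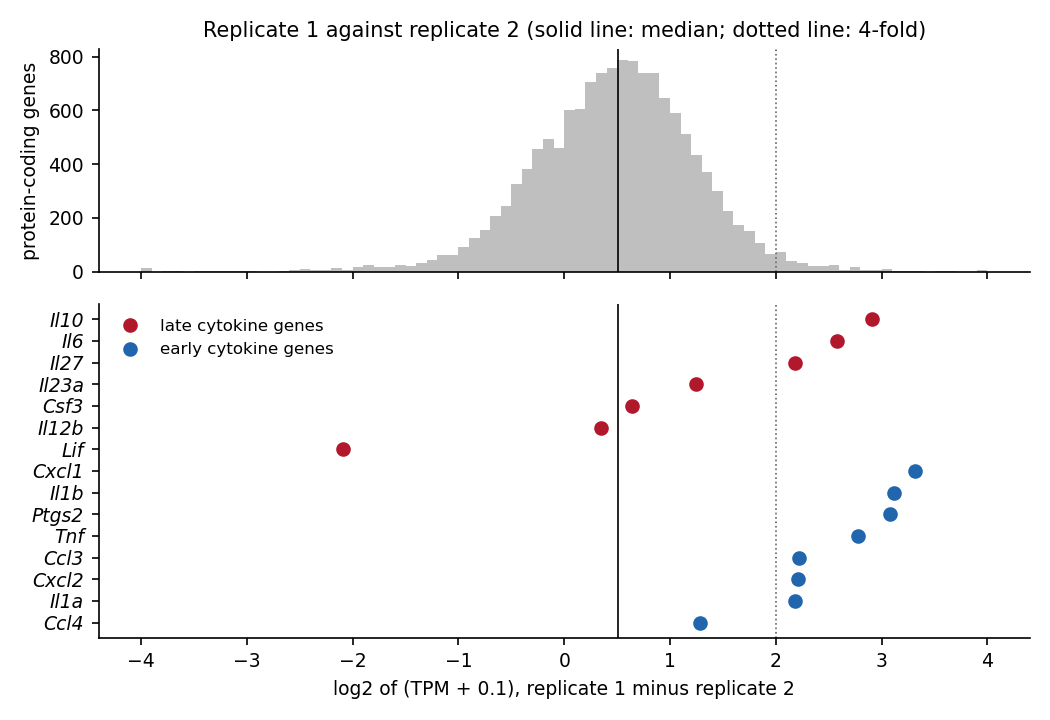
Above, the number of protein-coding genes by log2 of (TPM + 0.1) in replicate 1 minus replicate 2, with values beyond 4 in either direction placed at the ends. Below, the same value for the late (red) and early (blue) cytokine genes, with the median of all genes as a solid line and 4-fold as a dotted line. Il10, Il6, Il27 and 7 of 8 early genes lie beyond 4-fold, and Lif lies at -2.09.

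RNA of the known regulators of these cytokines was present on chromatin. Of 18 transcription regulators known to act at such promoters, all 18 had a mean of at least 1 TPM, with a list median of 31.1 TPM. Of all protein-coding genes 46.5% reached that mean. Irf1, a factor that Il12a and Il27 are known to need, was at 622, 79.2 and 175 TPM, and the AP-1 gene Fos at 252, 312 and 297 TPM. Irf1 was above Fos in replicate 1 and below it in replicates 2 and 3, so neither led throughout. Junb, a further AP-1 gene, was at 118 ± 36.9 TPM (SD, n = 3). Irf8, which acts at Il12b, was at 82.8, 87.3 and 104 TPM. The lowest were the AP-1 partner Batf at 5.07 ± 3.02 TPM and Cebpd at 1.47 ± 0.702 TPM (SD, n = 3 each). All 10 regulators of mRNA decay also passed 1 TPM, with a median of 21.6 TPM, from Khsrp at 10.8 ± 3.38 and Elavl1 at 11 ± 3.46 TPM up to Rc3h2 at 40.7 ± 17.4 and Hnrnpd at 42.1 ± 15 TPM (SD, n = 3 each). Zfp36, whose protein binds AU-rich elements, was highest at 170 ± 81.6 TPM, and Arid5a, which protects Il6 mRNA, was at 28.9 ± 10.5 TPM (SD, n = 3 each).

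Receptor chains for these cytokines were mostly well above the cytokines. Of 15 chains 11 had a mean of at least 1 TPM, against 46.5% of protein-coding genes, and the list median was 14.1 TPM. The colony-stimulating factor chains Csf2rb and Csf2ra led at 93.4 ± 38 and 85.5 ± 39.7 TPM, then the interleukin 10 receptor chains Il10ra at 57.5 ± 17.6 and Il10rb at 53 ± 14.9 TPM (SD, n = 3 each). Csf2rb and its neighbour Csf2rb2 are similar genes, so how their shared reads were split is uncertain. The chains with the lowest mean TPM in the gene table were Ednra, with 0, 1 and 0 counts, Il27ra, with 1, 4 and 0, and Il23r, with 0, 1 and 3. In the second quantification Il27ra had 84, 167 and 86 estimated counts and was at 1.78 ± 0.327 TPM (SD, n = 3), so its low level holds in the gene table only. Of 12 partner chains and relatives 3 had a mean of at least 1 TPM, Osm, Csf1 and Ebi3, against the same 46.5% of protein-coding genes. Next was Clcf1 at 0.23 ± 0.0917 TPM (SD, n = 3). A further 6 (Il11, Ctf1, Il24, Il3, Edn2 and Edn3) had no count in any library of the gene table. Il11 had 24.9, 31.2 and 29.7 estimated counts in the second quantification and Ctf1 had 6, 5 and 8, while the other 4 had none.

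**Figure D4:**
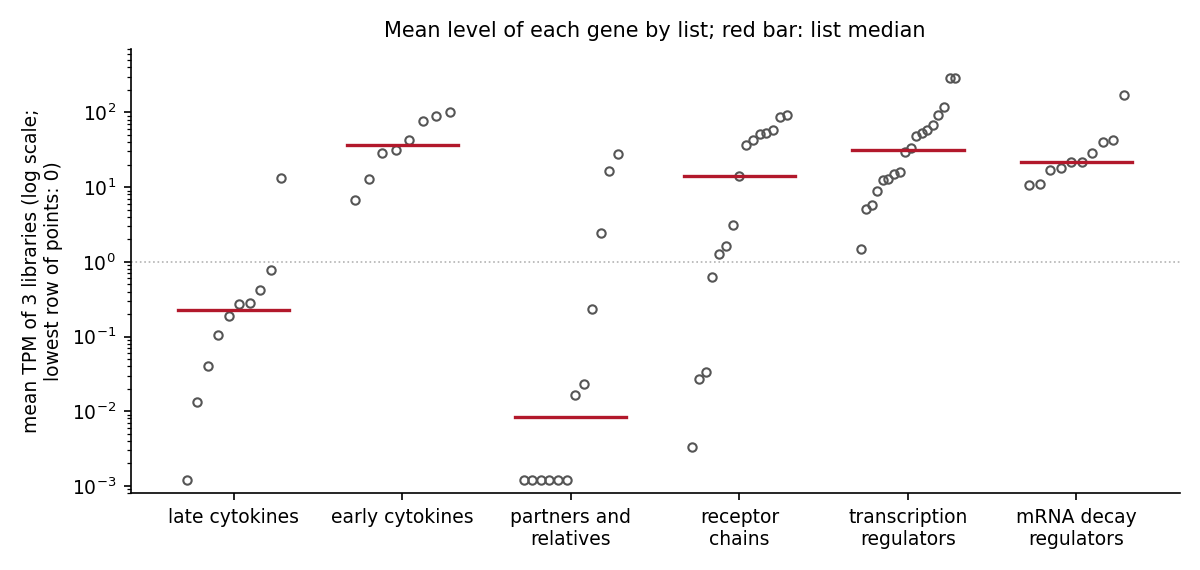
Mean TPM over 3 libraries of each gene, on a log axis, for the late cytokines and 5 other lists, with the list median as a red bar and genes at 0 on the lowest row. The medians are 0.228 TPM for the late and 36.9 TPM for the early cytokines, and all transcription and mRNA decay regulators lie above the dotted line at 1 TPM.

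A feature of the transcripts was counted in the late and early genes. The pentamer ATTTA, the core of the AU-rich elements that mark cytokine mRNAs for rapid decay, occurred at least 5 times in the 3′ untranslated region of 9 of the 10 late genes and 5 of the 8 early genes, against 17.9% of 17861 protein-coding genes. Its density was highest in Csf2, with 9 in 317 bases, or 28.4 per kb, then Il27 at 17.5 and Il6 at 14.1 per kb. Edn1, with 3, and Lif, with 7 in 3180 bases, or 2.2 per kb, had the lowest densities of the set. The median was 9.05 per kb over the late genes, 9.59 per kb over the early genes and 1.19 per kb over all. These counts come from the annotated sequence and hold no measurement of stability. They refer to the protein-coding isoform with the longest coding sequence. For Il6, Il12b and Lif that was not the isoform with the most expected counts.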

How the data were processed

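For each library the authors deposited a gene table and a transcript table with expected counts and TPM, the latter also with the percent of a gene's abundance taken by each isoform, per the file headers. A further deposited transcript table holds estimated counts and TPM of a second quantification, summed here over the transcripts of a gene. Genes follow GENCODE M21 on mm10, per the file headers of the deposited text. Programs and strand use: not given in the sources used here, so genes and antisense partners may share reads. The authors' TPM sums to 1000000 over a gene table, in which most of the sum falls outside protein-coding genes.

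Genes were matched by gene ID. Upstream sequences come from RefSeq (GRCm38.p6). Rounded expected counts were used for scaling by edgeR 4.0.16 (TMM) and DESeq2 1.42.0 (size factors) in R 4.3.3, as alternatives to TPM. Other steps used Python 3.11.15 with scipy 1.17.1, and scaling was tested on simulated data. With 1 group there was no test between groups. Members, lists and thresholds were chosen with earlier results of these data known, and the comparison of replicates 1 and 2, the promoter letters and the pentamer count were added after the data were seen. Named genes are all late and early cytokine genes, the 4 highest and 2 lowest of each other list, not all printed, genes beside or overlapping a member, and the 3 genes most like each of the 2 members with the most counts. Single cell type markers, Csf2rb2, Il23r, Il11, Ctf1, Il24, Il3, Edn2 and Edn3 were named after their values were seen.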

Additional observations from a re-analysis of the deposited data

How the results depend on the processing

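No paired analysis was possible because there is only 1 group. Of the 10 late genes, 4 had at least 3 counts in every library, against 55.7% of protein-coding genes. This number was 8 in the second quantification, 7 with a floor of 1 count, 1 with a floor of 10 counts and 5 whichever library was left out. The number with a mean of at least 1 TPM, 1 as reported, was 5 in the second quantification, 6 after rescaling TPM to protein-coding genes, 7 at a threshold of 0.1 TPM and 1 to 2 when a library was left out. Of protein-coding genes 46.5% had a mean of at least 1 TPM, and 58.7% in the second quantification. For the other settings of these 2 numbers that share was not computed, so the shifts cannot be read as particular to the late genes. The median level of 0.228 TPM became 0.742 in the second quantification, 1.09 after rescaling to protein-coding genes, 0.304 and 0.292 with TMM and DESeq2 size factors in place of the TPM total, and 0.283 over the members with 3 counts in a library; leaving out a library gave 0.182 to 0.23. The early genes exceeded the late ones under every alternative run: the difference of 4.81 became 3.7 with protein-coding isoforms only, 6.44 after rescaling and 6.99 with a pseudocount of 0.1, and it was 4.37 to 5.22 when a library was left out. The 7 early genes at least 4-fold higher in replicate 1 than in replicate 2 became 4 relative to the median gene, while the share of protein-coding genes went from 2.1% to 0.702%. Apart from Il12a, at 0 throughout, the mean of all 9 genes was higher in the second quantification. The cause of these shifts was not tested, except that rescaling by construction leaves out all genes that are not protein-coding. In the gene table Csf2, Csf3, Edn1 and Il12a had at most 3 counts in a library, so differences between libraries were not detectable there at this depth.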

Other observations

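Vwf, the von Willebrand factor gene and a marker of endothelium, was at 36.4, 42.7 and 48.4 TPM, while the other endothelial markers were lower in the gene table: Cldn5 had no count, Tek had 5, 3 and 4 counts and Cdh5 had 1, 3 and 1. Pecam1 was at 0.22, 0.2 and 0.49 TPM and Kdr at 3.94, 1.38 and 3.42 TPM. Csf2ra, unlike Il10 and the early cytokine genes, had its lowest level in replicate 1, at 42.2, 94.1 and 120 TPM in replicates 1, 2 and 3. This was not particular to Csf2ra, since Vwf, Fos, Irf8 and Khsrp among others were also lowest in replicate 1.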
